A study of Homo sapiens with 6 samples.

Results

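The SLC25 family is the largest group of transporters of the mitochondrial inner membrane, and its members named SLC25A with a number were followed here in LNCaP cells. Members were all genes with such a symbol in the platform annotation, and each took its values from 1 probe set (a set of short probes), the brightest over all arrays of those paired with that gene alone. This gave 45 SLC25A genes of 19775 genes measured, from 96 probe sets. A RefSeq gene table lists 48 such symbols, and the remaining 3 were not analysed here. LNCaP is an established human prostate cancer line that responds to androgen. One group of 3 arrays came from cells in which PCARNEQ, a non-coding RNA, was targeted with small interfering RNA (siRNA), and the other 3 from cells given siRNA to EGFP, a jellyfish-derived protein with no human counterpart, as the control. The labels give no dose, time after treatment or number of siRNA sequences, nor do they mention separate cultures. The p-values therefore measured only how far these arrays spread, which may be technical. PCARNEQ itself was not analysed here.

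Carriers of this family share a fold of repeated membrane-spanning segments and exchange nucleotides, phosphate, organic acids, amino acids, cofactors and metal ions between the cytosol and the mitochondrial matrix. Adenine nucleotide carriers export ATP made in the matrix, ornithine carriers connect cytosolic and mitochondrial steps of arginine metabolism, and the carnitine carrier brings fatty acyl groups in for oxidation. Most carriers are made in the cytosol and reach the inner membrane through the TOM pore, small TIM chaperones and the TIM22 complex.

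Values are log2 of the deposited intensity, in which a difference of 1 is a 2-fold change. A gene was taken to have risen or fallen when limma's test across all 19775 genes gave a Benjamini-Hochberg adjusted p below 0.05. The median of all probe sets was 7.03 on every array, and a level below it may be background. Array 1 stood apart in both groups: the SD of the log2 difference across probe sets was 0.37 between siPCARNEQ arrays 1 and 2 and 0.14 between arrays 2 and 3, against 0.23 and 0.13 in siEGFP. RNA integrity was read from ACTB, whose 3' control signal exceeded the 5' one by 1.84 (log2) in siPCARNEQ array 1 and by 0.63 to 0.78 on the other 5 arrays. All 7 measured luminal prostate markers lay above the array median. Their mean level was 12.43 to 12.45 in siPCARNEQ and 11.84 to 11.92 in siEGFP arrays, and 5 of the 7 rose. The mean of 7 stromal, immune and endothelial genes was 7.46 to 7.50 and 7.39 to 7.49, and among them the immune marker PTPRC lay at 5.09 and 5.08, while the collagen gene COL1A1 was bright (10.79 and 9.68) and rose by 1.11. Of these 7, the smooth muscle gene ACTA2 fell by 0.46, and the other 5, COL1A2 with a change of -0.14 among them, did not pass. KRT5 and KRT14, markers of basal cells, averaged 6.56 to 6.74 and 6.12 to 6.28. KRT14 rose by 1.02 at a mean level below the array median, and KRT5 had a change of -0.16 and did not pass. The part of array 1 and of the marker shifts in the results below was not tested, beyond the values given with array 1 left out.

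Among the 45 SLC25A genes, 15 rose, 7 fell and 23 did not pass in siPCARNEQ cells. SLC25A16, a carrier linked to coenzyme A transport, had the largest rise at 3.77-fold, and SLC25A15, the ornithine carrier of the urea cycle, had the largest fall at 3.29-fold. SLC25A4, the adenine nucleotide carrier of muscle and heart, was the third member with a change of at least 2-fold. All 3 members with an uncoupling-protein-like sequence rose. Of all genes, 15.2% rose, 12.3% fell and 27.5% changed in either direction. The median log2 change was 0.075 over the 45 members and -0.014 over all genes. In RNA from whole cultures, fewer cells with a transcript and less of it per cell cannot be told apart.

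The mean level of 38 of the 45 members (84.4%) lay above the array median, as it did for 12490 genes in all (63.2%). The 7 members that did not were SLC25A2, SLC25A18, SLC25A31, SLC25A41, SLC25A43, SLC25A47 and SLC25A53, of which SLC25A31 is known as the adenine nucleotide carrier of the male germ line and SLC25A47 as a liver carrier. The 5 of these that did not pass had changes of -0.18 (SLC25A43) to 0.07 (SLC25A47). Among the 38 members above the median, 14 rose and 6 fell, and 39.5% of all genes above the median changed. One of the 14, SLC25A34, lay above it through the siPCARNEQ arrays only (means 7.38 and 6.99). Against the median of the genes' own representing probe sets, 8.03, 34 members lay above. In 31 members the 3 siPCARNEQ arrays did not overlap the 3 siEGFP arrays, 20 of them higher and 11 lower, and in 44% of all genes the groups did not overlap. All 22 members that passed were among those without overlap.

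**Figure D1:**
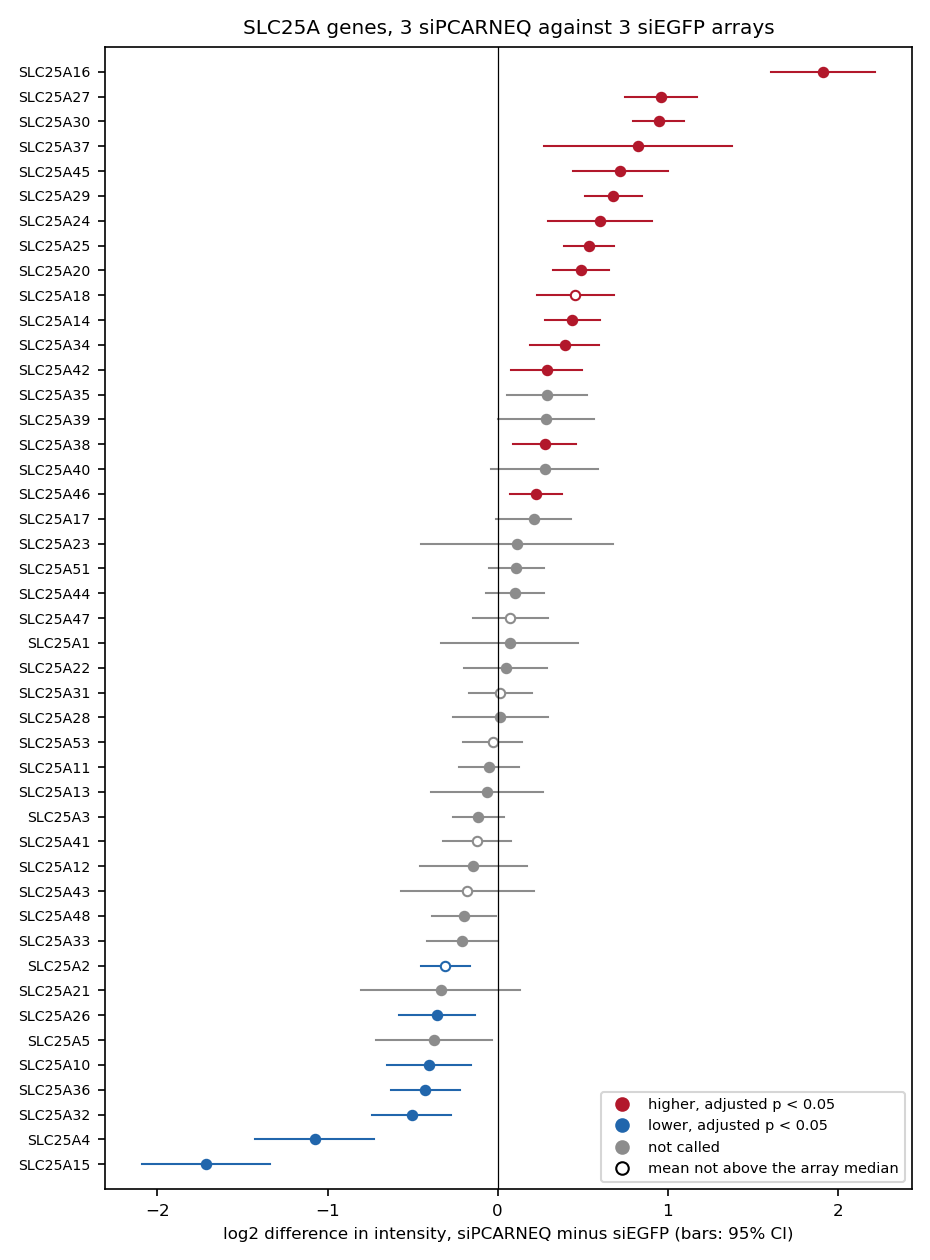
Log2 difference in intensity (siPCARNEQ minus siEGFP, horizontal axis) of each of the 45 SLC25A genes, with its 95% confidence interval from limma, for 3 arrays per group. Red points rose, blue points fell, grey points did not pass, and open points have a mean not above the array median of 7.03; the range runs from -1.72 for SLC25A15 to 1.91 for SLC25A16.

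Cofactor carriers moved in both directions, with 2 of 6 members higher, 2 lower and 2 not passing. Beside this and the role counts below, 15.2% of all genes rose and 12.3% fell. Of all genes above the array median, 39.5% changed. No role's count was tested against these shares. SLC25A16 (probe set 235747_at) lay at 12.51, 12.10 and 12.004 in siPCARNEQ arrays 1 to 3 and at 10.29, 10.27 and 10.32 in siEGFP arrays 1 to 3. The siEGFP arrays lay close together, and every siPCARNEQ array was far above them, with array 1 the highest. The log2 change was 1.91 (SE 0.13, limma adjusted p = 0.000116). The other 3 probe sets of SLC25A16 gave smaller changes: 1.04 and 0.54 in a pair that also rose over probe sets, and 0.26 (adjusted p = 0.2) in 210686_x_at, whose suffix marks probes that can match other transcripts. The mean over its probe sets gave 0.94, so the size of the rise depended on the probe set while its direction did not. SLC25A42, which carries coenzyme A and adenine nucleotides, rose by 0.29 (SE 0.09, adjusted p = 0.0487), close to the threshold. It did not pass when any array other than siPCARNEQ array 3 was left out (adjusted p = 0.0554 to 0.168, and 0.0035 to 0.197 over all alternatives). In all, SLC25A42 lost its call in 10 of 16 alternatives. Its dimmer probe sets, at mean levels of 4.9 (242274_x_at), 5.0 and 6.3, below the array median, had changes of 1.02, 0.15 and 0.28.

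SLC25A32, known for carrying folate or flavin adenine dinucleotide into mitochondria, had 10.82, 11.08 and 11.06 in siPCARNEQ and 11.36, 11.54 and 11.58 in siEGFP arrays. Array 1 was the lowest of each group, and the groups stayed apart. SLC25A32 fell by 0.51 (SE 0.10, limma adjusted p = 0.00815), and with arrays 2 and 3 averaged as 1 replicate it did not pass (adjusted p = 0.0771, and 0.00104 to 0.0771 over all alternatives). SLC25A26, the carrier of S-adenosylmethionine, the cell's methyl donor, fell by 0.36 (SE 0.10, adjusted p = 0.0287). It did not pass without siEGFP array 1, 2 or 3 (adjusted p = 0.0674 to 0.0952, and 0.00727 to 0.129 over all alternatives). SLC25A17, which carries cofactors into peroxisomes, had a change of 0.21 (95% CI -0.01 to 0.43, adjusted p = 0.152) with its brightest probe set, but rose by 0.36 in its dimmer one (0.0325 over probe sets). Without siPCARNEQ array 1 the brighter probe set passed (adjusted p = 0.0218, and 0.0106 to 0.455 over all alternatives). SLC25A51, the mitochondrial NAD carrier, had a change of 0.11 (adjusted p = 0.297).

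Amino acid carriers for ornithine, basic residues, glycine and branched-chain amino acids held the largest fall: 2 of 5 rose, 2 fell and 1 did not pass. SLC25A15 (218653_at), which exchanges ornithine for citrulline, lay at 9.12, 9.73 and 9.72 in siPCARNEQ and at 11.21, 11.23 and 11.28 in siEGFP arrays. All siPCARNEQ arrays were more than 1 log2 unit below the siEGFP arrays, with array 1 the lowest. SLC25A15 fell by 1.72 (SE 0.16, limma adjusted p = 0.000381), with a difference of -2.09 between the arrays numbered 1 and of -1.53 between the means of arrays 2 and 3. The other probe set, 222705_s_at, had a log2 change of -1.53, so both probe sets of the gene fell. SLC25A2, a paralogue of SLC25A15 with a similar substrate, fell by 0.31 (SE 0.06, adjusted p = 0.00905) at a mean level of 5.74, below the array median, and did not pass once arrays 2 and 3 were averaged (adjusted p = 0.116, and 0.00522 to 0.116 over all alternatives).

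SLC25A29 (225306_s_at), a carrier of basic amino acids such as arginine and lysine, lay at 9.56, 9.67 and 9.61 in siPCARNEQ and at 8.90, 8.89 and 9.02 in siEGFP arrays. Arrays within each group were close, array 1 included. SLC25A29 rose by 0.68 (SE 0.07, limma adjusted p = 0.000609), and 3 of its 4 probe sets rose when p was adjusted over probe sets, with 0.44 for the mean of all 4. SLC25A38, a glycine carrier of heme synthesis, rose by 0.28 (SE 0.08, adjusted p = 0.0385), but it did not pass when any array other than siPCARNEQ array 1 was left out (adjusted p = 0.0599 to 0.127, and 0.0162 to 0.176 over all alternatives). SLC25A44, a carrier of branched-chain amino acids, had a change of 0.10 (adjusted p = 0.351).

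Among the adenine nucleotide carriers, 1 of 3 measured members fell and none rose (0 in limma at p below 0.05 before adjustment). SLC25A4 (202825_at) lay at 9.69, 10.28 and 10.17 in siPCARNEQ and at 11.07, 11.13 and 11.17 in siEGFP arrays. The lowest siEGFP array was well above the highest siPCARNEQ array. SLC25A4 fell by 1.08 (SE 0.15, limma adjusted p = 0.00189), with a difference of -1.38 between the arrays numbered 1 and of -0.93 between the means of arrays 2 and 3. A second SLC25A4 probe set, 214821_at, at a mean level of 5.50, had a change of -0.30 (adjusted p = 0.0691 over probe sets), and the mean of both was -0.69, less than a 2-fold change. SLC25A5, the paralogue typical of dividing cells, lay at 13.51, 14.04 and 14.04 in siPCARNEQ and at 14.20, 14.24 and 14.27 in siEGFP arrays. Its groups did not overlap, yet siPCARNEQ array 1 was far below the rest. SLC25A5 had a change of -0.38 (95% CI -0.72 to -0.03, adjusted p = 0.102), and passed with a block for the replicate number (adjusted p = 0.0472) or without siPCARNEQ array 1 (0.0443, and 0.0145 to 0.231 over all alternatives). The coding sequences of these paralogues are very similar and SLC25A5 has processed copies in the genome, so the split of signal between them may be uncertain. Whether their probes match both genes was not tested. The difference between the 2 paralogues was not tested.

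ATP-Mg/phosphate carriers, which exchange nucleotides for phosphate, rose in 2 of 4 members, with none lower (0 in limma at p below 0.05 before adjustment). SLC25A25 (225212_at) lay at 9.98, 10.04 and 9.97 in siPCARNEQ and at 9.46, 9.48 and 9.43 in siEGFP arrays, with little spread within either group. SLC25A25 rose by 0.54 (SE 0.06, limma adjusted p = 0.000927). SLC25A24 (204342_at) lay at 11.03, 11.53 and 11.45 in siPCARNEQ and at 10.76, 10.73 and 10.72 in siEGFP arrays. Here siPCARNEQ array 1 was the one nearest to the siEGFP arrays, and the difference was 0.27 between arrays numbered 1 and 0.77 between the means of arrays 2 and 3. SLC25A24 rose by 0.60 (SE 0.13, adjusted p = 0.0122) but lost its call once arrays 2 and 3 were averaged (adjusted p = 0.125, and 0.00038 to 0.125 over all alternatives). A second probe set of SLC25A24, below the array median at 6.88, had a change of 0.003, and the mean of both rose by 0.30. SLC25A23 had a change of 0.11 with a wide interval (95% CI -0.45 to 0.68), and SLC25A41 lay below the array median.

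**Figure D2:**
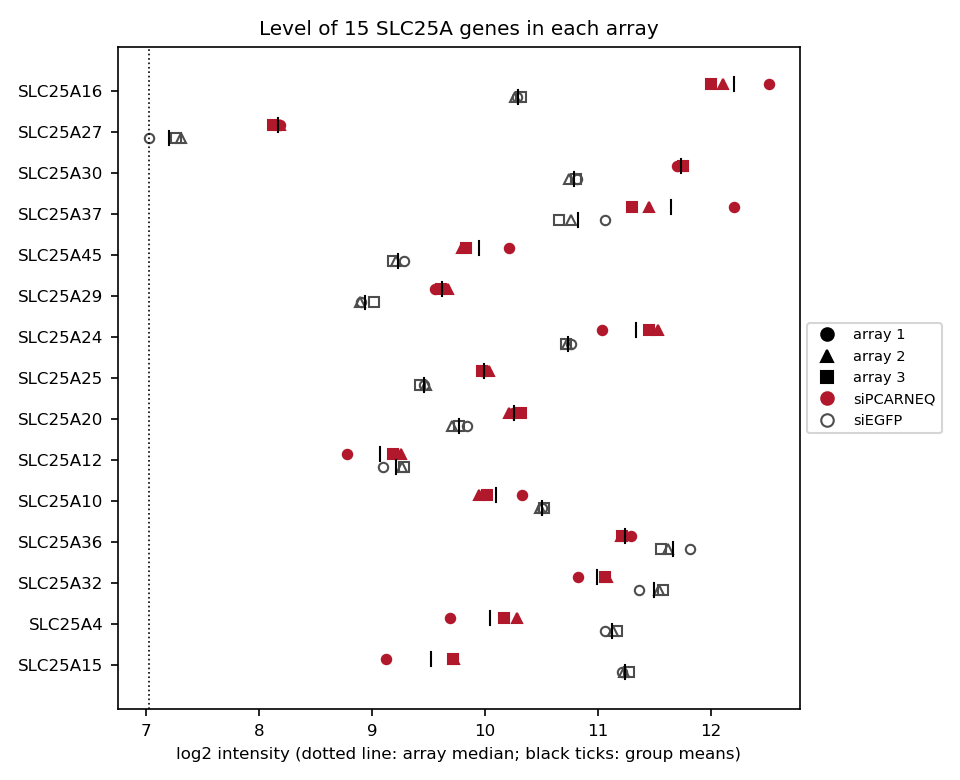
Log2 intensity (horizontal axis) of 15 SLC25A genes in each of the 6 arrays, red filled symbols for siPCARNEQ and open grey symbols for siEGFP, with the array number as the symbol's shape, group means as black ticks and the array median of 7.03 as a dotted line. The groups lie apart in 14 of the 15 genes and overlap in SLC25A12, and siPCARNEQ array 1 is the highest or lowest of all 6 arrays in 8 of them (SLC25A16, SLC25A15, SLC25A4, SLC25A27, SLC25A37, SLC25A45, SLC25A32 and SLC25A12).

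The uncoupling-protein-like members, named for their sequence likeness to the proton carriers of the UCP group, rose in 3 of 3 genes. SLC25A30 (226782_at) lay at 11.70, 11.74 and 11.75 in siPCARNEQ and at 10.81, 10.74 and 10.80 in siEGFP arrays. Both groups were tight, and SLC25A30 rose by 0.95 (SE 0.06, limma adjusted p = 0.000115). Its other 3 probe sets, at mean levels of 3.88, 6.75 and 7.64, had changes of -0.04, 0.10 and 0.07, and the mean over all 4 did not pass (0.27, adjusted p = 0.253, and 0.000109 to 0.253 over all alternatives). The rise of SLC25A30 was thus measured in 1 bright probe set alone.

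SLC25A27 (230624_at), also called UCP4 and known from brain, lay at 8.19, 8.19 and 8.12 in siPCARNEQ and at 7.03, 7.31 and 7.27 in siEGFP arrays. The siEGFP arrays were close to the array median of 7.03, so the size of the change is uncertain. SLC25A27 rose by 0.96 (SE 0.09, limma adjusted p = 0.000385), and its other 4 probe sets, all below the median, had changes of -0.20 to 0.54, so that the mean over all 5 rose by 0.38. SLC25A14, also called UCP5, rose by 0.44 (SE 0.07, adjusted p = 0.00308) and lost its call once arrays 2 and 3 were averaged or with the mean of its probe sets (adjusted p = 0.0676 and 0.0602, with 0.00144 as the lowest over all alternatives). The UCP genes themselves and MTCH1 and MTCH2, which share the carrier fold under other symbols, gave 0 of 5 that passed with limma, and 0 higher and 1 lower at an unadjusted p below 0.05.

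Iron and glutathione carriers rose in 1 of 4 members, and none fell (0 in limma at p below 0.05 before adjustment). SLC25A37 (222529_at), mitoferrin-1, which imports iron for heme and iron-sulfur clusters, lay at 12.21, 11.45 and 11.30 in siPCARNEQ and at 11.06, 10.76 and 10.66 in siEGFP arrays. Array 1 was the highest of both groups, and the gap between the highest siEGFP and the lowest siPCARNEQ array was small. SLC25A37 rose by 0.82 (SE 0.23, adjusted p = 0.0369) and did not pass without siPCARNEQ array 2 or without siEGFP array 1, 2 or 3 (adjusted p = 0.0509 to 0.124, and 0.00193 to 0.124 over all alternatives). The gene had 10 probe sets, of which 5 rose and none fell when adjusted over probe sets, with changes of -0.23 to 1.06. The brightest, 222529_at, was not among those 5 (limma adjusted p = 0.0552 over probe sets). The mean over all 10 was 0.54, and without siPCARNEQ array 1 the change of the brightest was 0.55. The second brightest, 226179_at, rose by 1.06 (adjusted p = 0.00144 over probe sets). SLC25A28, mitoferrin-2, had a change of 0.02 (95% CI -0.26 to 0.29). SLC25A39, a glutathione carrier, and its paralogue SLC25A40 had changes of 0.28 (adjusted p = 0.13) and 0.28 (adjusted p = 0.185), and both passed when the block was fitted (adjusted p = 0.0455 and 0.0284, in ranges of 0.027 to 0.29 and 0.00464 to 0.937 over all alternatives). Without siPCARNEQ array 1, SLC25A40 passed too (adjusted p = 0.0174).

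The carnitine carrier SLC25A20 (203658_at) lay at 10.25, 10.21 and 10.32 in siPCARNEQ and at 9.84, 9.71 and 9.77 in siEGFP arrays. It rose by 0.49 (SE 0.07, limma adjusted p = 0.00213) and passed under every alternative run. SLC25A20 has 1 probe set, so averaging or leaving out probe sets could not change its values. Carriers with a less settled substrate or another role rose in 3 of 8 members, and none fell (1 lower in limma at p below 0.05 before adjustment). SLC25A45 (236436_at) lay at 10.22, 9.79 and 9.83 in siPCARNEQ and at 9.28, 9.21 and 9.18 in siEGFP arrays, with array 1 the highest of each group. SLC25A45 rose by 0.72 (SE 0.12, adjusted p = 0.00395), and its other probe set by 0.72 as well. SLC25A34 rose by 0.39 and SLC25A46, an outer membrane protein that acts in mitochondrial shape, by 0.23 (adjusted p = 0.0134 and 0.0366). SLC25A34 lost its call when siPCARNEQ array 3 or siEGFP array 3 was left out (adjusted p = 0.0519 to 0.0599, and 0.00182 to 0.147 over all alternatives). SLC25A46 lost its call when array 2 or 3 of either group was left out (adjusted p = 0.108 to 0.139, and 0.00832 to 0.484 over all alternatives), and its other probe set had a change of -0.05. SLC25A35, a paralogue of SLC25A34, had a change of 0.29 (adjusted p = 0.0732) and passed when the block was fitted (adjusted p = 0.0153) or siEGFP array 1 left out (0.0483, and 0.00733 to 0.266 over all alternatives).

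Phosphate and pyrimidine nucleotide carriers fell in 1 of 3 members, with none higher (0 in limma at p below 0.05 before adjustment). SLC25A36 (201919_at), a carrier of pyrimidine nucleotides, lay at 11.29, 11.20 and 11.21 in siPCARNEQ and at 11.82, 11.62 and 11.56 in siEGFP arrays. The siPCARNEQ arrays were close together and all lower. SLC25A36 fell by 0.43 (SE 0.09, limma adjusted p = 0.00949), and its next brightest probe set by 0.51. A dimmer probe set, 237741_at, had a change of 0.44 (adjusted p = 0.33), and the mean over all 5 did not pass (-0.20, adjusted p = 0.392), nor did the averaged arrays 2 and 3 (0.082, and 0.00274 to 0.392 over all alternatives). SLC25A33, the other pyrimidine nucleotide carrier, had a change of -0.21 (95% CI -0.41 to -0.0004, adjusted p = 0.132, with an unadjusted p of 0.0497), and SLC25A3, the phosphate carrier, of -0.11 (95% CI -0.26 to 0.04, adjusted p = 0.244). A second probe set of SLC25A3, 228971_at, fell by 0.45 (adjusted p = 0.0222 over probe sets), and the mean of both passed (-0.28, adjusted p = 0.0154, and 0.0133 to 0.499 over all alternatives).

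Citrate, dicarboxylate and oxoacid carriers fell in 1 of 4 members, with none higher (0 in limma at p below 0.05 before adjustment). SLC25A10 (218275_at), which exchanges dicarboxylates for phosphate, lay at 10.33, 9.95 and 10.02 in siPCARNEQ and at 10.50, 10.49 and 10.52 in siEGFP arrays. Here array 1 was the siPCARNEQ array nearest to siEGFP. SLC25A10 fell by 0.41 (SE 0.11, limma adjusted p = 0.0267) and did not pass when any 1 array other than siPCARNEQ array 1 was left out (adjusted p = 0.0696 to 0.0897, and 0.00129 to 0.206 over all alternatives). The citrate carrier SLC25A1 had a change of 0.07 (95% CI -0.33 to 0.47) and the oxoglutarate carrier SLC25A11 of -0.05 (95% CI -0.23 to 0.13). SLC25A21, which carries oxoadipate, overlapped between groups with a change of -0.33 (95% CI -0.80 to 0.13).

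Aspartate and glutamate carriers rose in 1 of 4 members, with none lower (0 in limma at p below 0.05 before adjustment). This member, the glutamate carrier SLC25A18, rose by 0.46 (adjusted p = 0.0111) at a mean level below the array median, and did not pass once arrays 2 and 3 were averaged (0.0678, and 0.00523 to 0.0678 over all alternatives). SLC25A12 (203340_s_at), an aspartate/glutamate carrier of the malate-aspartate shuttle, lay at 8.78, 9.26 and 9.19 in siPCARNEQ and at 9.10, 9.27 and 9.29 in siEGFP arrays. The groups overlapped, with a change of -0.14 (95% CI -0.46 to 0.17, limma adjusted p = 0.495). SLC25A13, its paralogue, had a change of -0.06 (95% CI -0.39 to 0.27) and the glutamate carrier SLC25A22 of 0.05 (95% CI -0.20 to 0.29). Over the 23 members that did not pass, changes ran from -0.38 to 0.29, and every 95% interval lay within 1 log2 unit of 0.

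**Figure D3:**
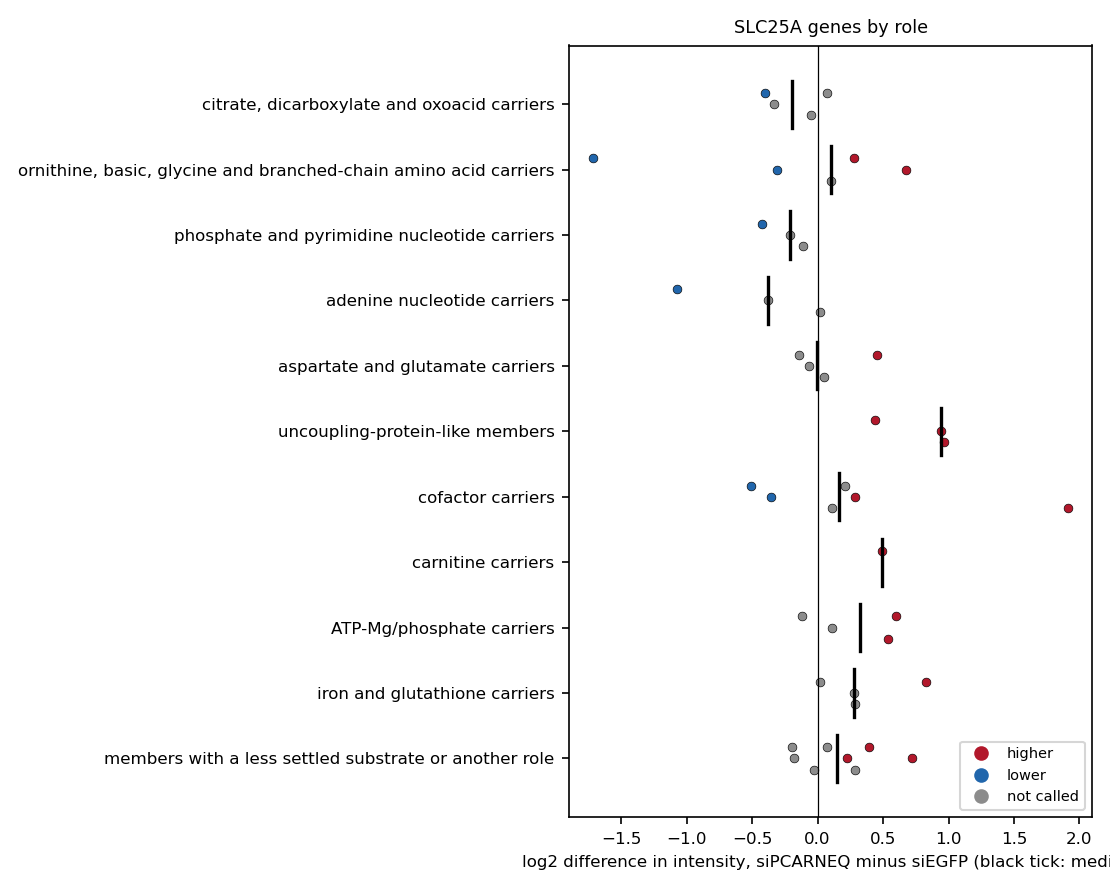
Log2 difference in intensity (siPCARNEQ minus siEGFP, horizontal axis) of the 45 SLC25A genes grouped by role, 1 point per gene and a black tick at each group's median, red for genes that rose, blue for those that fell and grey for those that did not pass. The 3 uncoupling-protein-like members all lie above 0, between 0.44 and 0.96, while amino acid and cofactor carriers spread to both sides. Of all genes, 15.2% rose and 12.3% fell.

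Most members had more than 1 probe set. Of the 96 probe sets of the 45 genes, 26 rose and 10 fell when p was adjusted over all 54613 probe sets, of which 9.92% rose and 8.61% fell. In the SLC25A family 0 genes had probe sets that passed in opposite directions. Among the 27 genes with over 1 probe set, SLC25A48, named here after its values were seen, had 2 probe sets at nearly the same mean level with changes of -0.20 (adjusted p = 0.17) and 0.60 (adjusted p = 0.0328).

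**Figure D4:**
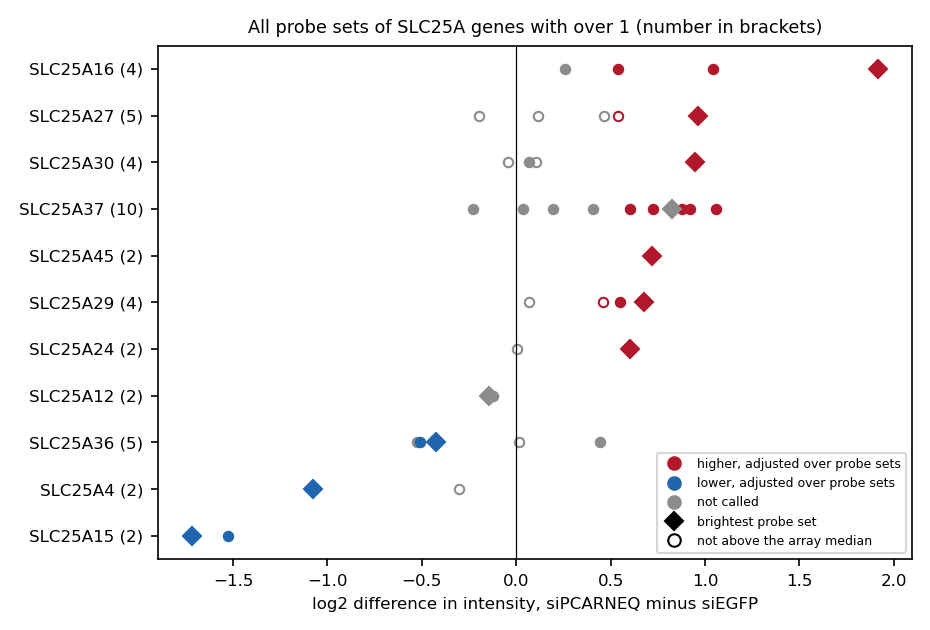
Log2 difference in intensity (siPCARNEQ minus siEGFP, horizontal axis) of every probe set of the SLC25A genes named with all values that have over 1, with the brightest as a diamond, colours for the call adjusted over probe sets, and open symbols for probe sets not above the array median of 7.03. Both SLC25A15 probe sets lie below -1.5, while the 3 dimmer SLC25A30 probe sets lie near 0.

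Upstream sequence is shown for members that moved apart, to set their promoters side by side: the largest falls, SLC25A15 and SLC25A4, and the largest rises, SLC25A27 and SLC25A29, among members that passed and have exactly 1 window in the RefSeq promoter table (GRCh38.p14). The table held a window for 38 of the 45 members, and the larger rises of SLC25A16, SLC25A30, SLC25A37 and SLC25A45 are not shown. Each line gives the 250 bases before the annotated start, 5' to 3' on the gene's strand: SLC25A15 at chr13:40789361-40789610 (+), SLC25A4 at chr4:185143016-185143265 (+), SLC25A27 at chr6:46652725-46652974 (+) and SLC25A29 at chr14:100306445-100306694 (-). Capitals mark matches on either strand to GGGCGG (the GC box), to CCAAT, to CCGGAA (the core of ETS sites) or to CACGTG (the E-box), of which 1 GC box and 1 CCAAT match adjoin in SLC25A29.
SLC25A15: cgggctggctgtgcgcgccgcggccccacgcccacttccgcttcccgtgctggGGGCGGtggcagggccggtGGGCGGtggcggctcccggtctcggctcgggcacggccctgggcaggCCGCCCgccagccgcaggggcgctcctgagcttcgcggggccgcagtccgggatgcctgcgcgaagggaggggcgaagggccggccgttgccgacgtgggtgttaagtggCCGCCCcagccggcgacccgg
SLC25A4: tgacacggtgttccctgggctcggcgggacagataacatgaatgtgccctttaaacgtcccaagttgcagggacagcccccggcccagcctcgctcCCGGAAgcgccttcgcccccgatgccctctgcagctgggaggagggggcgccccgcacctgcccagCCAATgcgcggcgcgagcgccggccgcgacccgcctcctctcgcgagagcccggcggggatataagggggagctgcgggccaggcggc
SLC25A27: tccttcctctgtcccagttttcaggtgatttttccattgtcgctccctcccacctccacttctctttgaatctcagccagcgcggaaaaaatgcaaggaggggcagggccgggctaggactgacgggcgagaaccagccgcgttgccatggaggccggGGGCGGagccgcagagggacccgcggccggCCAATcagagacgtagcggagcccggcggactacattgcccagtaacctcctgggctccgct
SLC25A29: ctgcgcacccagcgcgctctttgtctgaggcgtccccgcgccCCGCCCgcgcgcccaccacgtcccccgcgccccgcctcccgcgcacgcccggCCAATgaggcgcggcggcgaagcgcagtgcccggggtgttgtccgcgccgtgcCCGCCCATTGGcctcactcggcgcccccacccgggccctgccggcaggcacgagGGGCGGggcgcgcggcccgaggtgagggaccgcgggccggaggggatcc
The SLC25A15 window held 4 GC box matches and none of the other motifs in capitals. The SLC25A4 window held 1 CCAAT and 1 ETS match and no GC box match, SLC25A27 held 1 GC box and 1 CCAAT match, and SLC25A29 held 3 and 2. Of all 35116 windows in the table, 42.6% held the GC box, 32.01% CCAAT, 14.5% the ETS core and 6.3% the E-box. Among the 48 windows of SLC25A genes the numbers were 31, 20, 17 and 8.

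These 4 motifs were picked for capitals from 10 after their shares were seen, each being more frequent in SLC25A windows than in all windows, so that excess carries no weight. Of the other 6, the NRF1 motif part GCATGCGC was in 2.6% of all windows and 0 of 48, and the longer NRF1 palindrome that holds it was in 1.0% and 0. The cyclic AMP element TGACGTCA was in 1.6% and 3 of 48, and its part TGACG, which overlaps it, in 21.2% and 14. The E-box variant CATGTG was in 9.4% and 4 of 48, and AGGTCA, part of nuclear receptor sites, in 12.1% and 4. A match is a description of these letters, and expression arrays do not measure what binds there.

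Genes that work beside the carriers were taken from 9 lists with 122 measured members, of which 22 rose and 27 fell, against 15.2% and 12.3% of all genes. Of the 122, 111 (91%) lay above the array median, against 63.2% of all genes. With only genes above it tested, 24 of these 111 rose and 30 fell, against 23.4% and 19.4% of all genes tested. With arrays centred on their gene median, 17 of the 122 rose and 32 fell, against 13.4% and 14.9% of all genes. In the TIM22 import pathway, which brings carriers to the inner membrane, 8 of 15 fell and 0 rose (0 higher in limma at p below 0.05 before adjustment), with a median change of -0.32. TOMM20, a receptor of the TOM complex, fell by 0.73 (SE 0.06, adjusted p = 0.000307), the small TIM chaperone TIMM10 by 0.66 (SE 0.08) and TOMM40L, a paralogue of the TOM pore, by 0.47. TOMM40L did not pass once arrays 2 and 3 were averaged (adjusted p = 0.064, and 0.000797 to 0.064 over all alternatives). TIMM8A, another small TIM named after its value was seen, fell by 1.04. The other 7 of the 15 did not pass. Among them TOMM70, TIMM9 and AGK, also named after their values were seen, had changes of -0.03, -0.07 and -0.01. Among ATP synthase subunits and other partners of adenine nucleotide and phosphate transport, 4 of 14 fell and 0 rose (2 higher in limma at p below 0.05 before adjustment). They included PPIF, the mitochondrial cyclophilin, and the ATP synthase subunits ATP5MC1 and ATP5PO, with changes of -0.39, -0.39 and -0.33. All 3 lost their calls once arrays 2 and 3 were averaged (limma adjusted p = 0.0729, 0.0678 and 0.101, the highest over all alternatives, the lowest being 0.00126, 0.00219 and 0.00257). ATP5PO also lost its call with the mean of its probe sets (-0.16, adjusted p = 0.0789).

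Partners of the carnitine carrier rose in 6 of 16 genes and fell in 1. Of the 16, 15 lay above the array median. In the same fit 15.2% of all genes rose and 12.3% fell. In a separate fit of genes above the median, 23.4% rose and 19.4% fell. ACADVL, the very long-chain acyl-CoA dehydrogenase, rose by 0.98 (SE 0.10, limma adjusted p = 0.000471) and CPT1A, which makes acylcarnitine at the outer membrane, by 0.60 (SE 0.10). The mean of the CPT1A probe sets rose by 0.26. ACADM, the medium-chain enzyme, fell by 1.17 (SE 0.25, adjusted p = 0.0123) but did not pass without siEGFP array 2 (adjusted p = 0.0526, and 0.000379 to 0.0613 over all alternatives). Around the ornithine carriers, 5 of 10 genes rose and 1 fell, with 9 of the 10 above the array median. OAT, ornithine aminotransferase, rose by 1.40 (SE 0.08, adjusted p = 6.4e-05) and ASS1, which uses citrulline, by 0.90 (SE 0.10). ODC1, which turns ornithine into putrescine, fell by 0.34, and did not pass without siEGFP array 2 or 3 (adjusted p = 0.0567 to 0.0633, and 0.0053 to 0.114 over all alternatives).

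Partners of folate, methyl and glycine transport fell in 5 of 14 genes, and 0 rose (1 higher in limma at p below 0.05 before adjustment). Of the 14, 11 lay above the array median. In the same fit 15.2% of all genes rose and 12.3% fell, and in the separate fit of genes above the median 23.4% and 19.4%. GCSH, a protein of glycine cleavage, fell by 1.35 (SE 0.15, limma adjusted p = 0.000724), the folate enzyme MTHFD1 by 0.47 and MAT2A, which makes S-adenosylmethionine, by 0.40. With the mean of probe sets the changes of MTHFD1 and MAT2A were -0.28 and -0.68, and MTHFD1 did not pass once arrays 2 and 3 were averaged (adjusted p = 0.0799, and 0.00186 to 0.0799 over all alternatives). MAT2A did not pass without siPCARNEQ array 2 or 3 (adjusted p = 0.0541 to 0.0576, and 0.00159 to 0.126 over all alternatives). Among genes of the malate-aspartate and citrate shuttles, 4 of 15 rose and 2 fell: GPD2, the mitochondrial glycerol-phosphate dehydrogenase, fell by 1.56 (SE 0.11, adjusted p = 0.000115), the malic enzyme ME2 fell by 0.71, and the isocitrate dehydrogenase IDH2 rose by 0.47, or 0.74 without _s_at and _x_at probe sets.

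Iron-sulfur and heme synthesis genes rose in 4 of 17 and fell in 2. Of the 17, 16 lay above the array median. In the same fit 15.2% of all genes rose and 12.3% fell, and in the separate fit of genes above the median 23.4% and 19.4%. CPOX and ALAD, both enzymes of heme synthesis, rose by 0.56 and 0.67. ALAD did not pass with the mean of its probe sets (0.28, adjusted p = 0.374, and 0.00151 to 0.374 over all alternatives). FDX1, a mitochondrial ferredoxin, fell by 0.56 and did not pass without siEGFP array 2 or 3 (adjusted p = 0.0669 to 0.0678) or without _s_at and _x_at probe sets (-0.31, adjusted p = 0.122, and 0.00106 to 0.122 over all alternatives). Other mitochondrial membrane transporters rose in 3 of 16 and fell in 4, and all 16 lay above the array median. The inner membrane transporter ABCB10 fell by 0.86 (SE 0.11, limma adjusted p = 0.00133) and SFXN4, a sideroflexin, by 0.67, while MICU2, a regulator of the calcium uniporter, rose by 0.60.

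**Figure D5:**
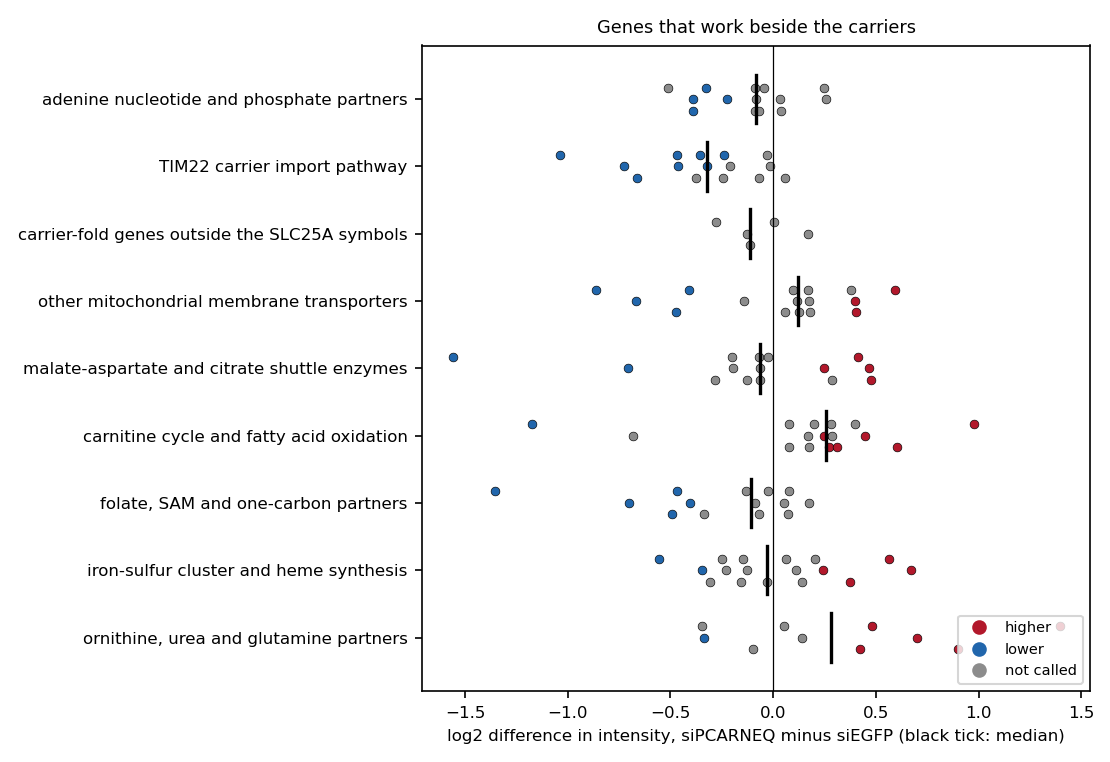
Log2 difference in intensity (siPCARNEQ minus siEGFP, horizontal axis) of 122 genes in 9 lists that work beside the carriers, 1 point per gene with a black tick at each list's median, red for genes that rose, blue for those that fell and grey for those that did not pass. In the TIM22 import list 8 of 15 genes are blue and none red, and in the ornithine list 5 of 10 are red. These counts are from the fit over all genes, in which 15.2% of genes rose and 12.3% fell. In a separate fit of genes above the array median, 23.4% rose and 19.4% fell.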

How the data were processed

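Total RNA of 6 samples was hybridised to single-colour arrays. Each deposited value is the intensity of a probe set, linear in scale, and RMA (robust multi-array average) is the tool that the submitters' processing notes name. RMA brings arrays to 1 distribution, so overall differences in RNA are out of reach. Which probe file and build were used is not given in the sources used here. Of 54675 probe sets, 62 controls were left out, 41091 had 1 gene, 1801 several and 11721 none listed in the platform annotation, and 0 symbols were updated through the RefSeq table.

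Log2 was taken with no pseudocount. The 2 groups of 3 arrays were fitted in limma 3.58.1 (lmFit, then eBayes; R 4.3.3), 2-sided, without covariates, with Benjamini-Hochberg adjustment over 19775 genes, after a test on simulated data. The number of arrays limits the precision. The members and lists were chosen with earlier results of these data known.

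Values in every array were given for members that passed with a log2 change of at least 0.5, and otherwise for the member above the array median with the largest change in its role. From each partner list up to 3 members with the smallest adjusted p were named. SLC25A5 was added after its values were seen, as the paralogue of SLC25A4. Listed genes with no single-gene probe set were not analysed here. A planned protein comparison was not made. Promoter motifs were picked after seeing their shares.

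Deviations from the group means correlated at 0.47, 0.30 and 0.34 between arrays of the same number. The 3 deviations of a group cancel out, so array 1 standing apart in both groups can by itself make all 3 correlations positive. They do not show that arrays 2 or 3 pair by number. The block, an alternative, took the labels' numbers to pair arrays, while the main fit left this pairing out. No batch is stated. Other alternatives left out each array, averaged probe sets, left out _s_at and _x_at probe sets or dim genes, adjusted over probe sets, centred arrays, averaged arrays 2 and 3 or changed the prior. Arrays 2 and 3 alone, and centring on the gene median, were added after seeing the data. SciPy 1.17.1 and matplotlib 3.10.9 under Python 3.11.15 were used.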

Additional observations from a re-analysis of the deposited data

How the results depend on the processing

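Of the 22 SLC25A genes that passed, 8 passed under every alternative run for them (SLC25A4, SLC25A15, SLC25A16, SLC25A20, SLC25A25, SLC25A27, SLC25A29 and SLC25A45). SLC25A20 and SLC25A25 have 1 probe set each, so averaging or leaving out probe sets could not change their values. None of the 22 changed direction under any alternative run for it, up to 16. The block, the adjustment over probe sets, the test of genes above the median and the changed prior leave the log2 change as it is. Direction could not turn under those. Averaging arrays 2 and 3 of each group as 1 replicate, which leaves fewer replicates, gave 7 SLC25A genes higher and 2 lower, against 15 and 7, and 8 partner genes higher and 7 lower, against 22 and 27. Under that setting 6.05% of all genes were higher and 5.26% lower. Leaving out 1 array at a time gave 10 to 16 SLC25A genes higher and 5 to 8 lower, a median change of 0.028 to 0.144, and 11 to 29 partner genes higher and 17 to 33 lower. Over the same omissions, 10.3% to 17.4% of all genes were higher and 8.38% to 14.5% lower. The lowest partner counts came without siEGFP array 3 (11 and 17) and without siEGFP array 2 (12 and 17), and without siPCARNEQ array 2 there were 14 higher. The lowest median came without siEGFP array 3 and the highest without siPCARNEQ array 3, and without siEGFP array 3 the count of SLC25A genes higher was 10. Arrays 2 and 3 alone gave 38 partner genes higher, with 22.8% of all genes higher and 18.8% lower. Without _s_at and _x_at probe sets 17 partner genes were lower, of 99 still measured, against 11.1% of all genes. Centring on the gene median gave a median SLC25A change of 0.032, against 0.075. With the replicate number as a block, 18 SLC25A genes were higher and 8 lower, against 19.2% and 15.3% of all genes. The pairing kept all 22 calls and added SLC25A5, SLC25A35, SLC25A39 and SLC25A40, and it changed no other SLC25A call. Centring on the median of all probe sets could hardly move a value, as that median was 7.03 on every array, and it changed no count.

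Changes of sign occurred in 11 members that had not passed. Signs turned without siPCARNEQ array 1, or for SLC25A31 without siPCARNEQ array 2, and over all omissions of 1 array the changes ran from -0.115 to 0.182 for SLC25A1, -0.234 to 0.005 for SLC25A12, -0.152 to 0.102 for SLC25A13, -0.052 to 0.116 for SLC25A22, -0.165 to 0.268 for SLC25A23, -0.117 to 0.11 for SLC25A28, -0.039 to 0.074 for SLC25A31 and -0.06 to 0.025 for SLC25A53. With arrays 2 and 3 alone they were -0.005 for SLC25A1, 0.057 for SLC25A13, -0.002 for SLC25A22, -0.023 for SLC25A23, -0.123 for SLC25A28 and 0.012 for SLC25A53. With the mean of probe sets they were -0.022 for SLC25A28, -0.033 for SLC25A40, 0.204 for SLC25A48 and -0.029 for SLC25A51. Centring on the gene median gave -0.026 for both SLC25A28 and SLC25A31. Signal near background limits the 7 members below the array median. Of 24 partner genes named by rule, 14 passed under every alternative run for them. The cause of these shifts was not tested.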

Other observations

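Non-coding relatives of the carriers, which were not members, were measured by 5 genes: 4 antisense RNAs and 1 pseudogene. SLC25A25-AS1, antisense to SLC25A25, fell by 0.38 (SE 0.07, limma adjusted p = 0.00446), while SLC25A25 rose. SLC25A21-AS1 fell by 0.29 (adjusted p = 0.0392), and SLC25A21 had a change of -0.33 (adjusted p = 0.276). SLC25A5-AS1 had a change of -0.25 (adjusted p = 0.0725) and SLC25A48-AS1 of -0.16 (adjusted p = 0.16), and the latter and the pseudogene SLC25A3P1 lay below the array median.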
